A study of Mus musculus with 4 samples.

Results

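Interleukin-1 and the chemokines that draw neutrophils are among the first signals of acute inflammation. Il1a and Il1b are the agonists of the interleukin-1 receptor, Il1rn is a secreted antagonist that occupies the receptor without signalling, and Il1r2 is a decoy receptor that binds interleukin-1 without passing the signal on. Cxcl1, Cxcl2, Cxcl3 and Cxcl5 are ligands of Cxcr2, the receptor that guides neutrophils, while Ptgs2 makes prostaglandin H2, the precursor of prostaglandin E2, and Tnf is a cytokine that acts alongside interleukin-1. Their promoters are known targets of NF-kB, and several of their messages carry AU-rich 3′ ends that shorten their life.

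These 10 genes were taken as a list by name, out of 11248 genes with a value in at least one set of data. RNA was sequenced from primary 4T1 tumors and from regulatory T cells (Tregs) of such tumors, sorted by Foxp3-EGFP, in female Foxp3 EGFP Balb/c mice 8 weeks old, in which the green reporter is driven with Foxp3. The tumors grew from injected 4T1, a line from a Balb/c mammary carcinoma. Mice received Control SMO or LFPRLR SMO at 100 pmol/h/mouse for 12 days. An SMO is a splice-modulating oligomer, and LFPRLR SMO is directed at the long form of the prolactin receptor. The RNA of 6 mice was pooled for each library, and the Tregs came from an additional 6 mice per treatment, so each group was 1 library and no difference between groups has a replicate check. No p-value or SD is therefore given.

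The values were transcripts assembled on mm10, each with an FPKM (fragments per kilobase of transcript scaled to the size of the library, a level per length). A transcript was placed in a gene by a shared intron or by 50% of its exon bases, and a gene's level here is its transcripts' FPKM added together. There were 22481 transcripts in whole tumor with Control SMO, 31908 with LFPRLR SMO and 4838 in the tumor Tregs, giving a value to 9621, 9727 and 3693 genes. The values under both Treg labels were equal for all 4838 transcripts, and both headers name the control alignments as input. They were counted once as 1 set, taken as that of Control SMO as far as the headers tell, and no treatment comparison was made in Tregs. Read totals are not given in the sources used here, so the depth is known only through coverage, the mean number of reads over each base, of which the median per unit of FPKM was 1.88, 1.75 and 0.947. Coverage times length, summed over the listed transcripts, was 9031, 920 and 1617 megabases. The whole tumor libraries were thus far apart on that sum, and its bearing on their ratios was not tested. The targeted receptor gene, Prlr, had no transcript listed in any set, so its level could not check the labels.

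The Treg label was not borne out by the markers listed. The set is not complete, as described below, so an unlisted gene need not have been silent. The authors report lower Ctla4, Cd3e, Lck and Zap70 transcripts in tumor Tregs with LFPRLR SMO, and the set used here lists none of these genes. The tumor Treg set listed 0 of 22 T cell and Treg genes, with Foxp3, Cd4 and Il2ra among the unlisted, and in whole tumor only Ikzf2 was listed (FPKM 7.74 in the Control SMO library and 5.11 in the other). The tumor Treg set instead listed 23 of 23 monocyte and macrophage genes, with a summed FPKM of 605, beside 788 and 528 in whole tumor. Of 14 neutrophil genes 5 were listed there, with a summed FPKM of 113 of which Mmp9, a gelatinase that macrophages also make, gave 101. The neutrophil genes Ly6g, Mpo, Elane, Ltf, Camp and Retnlg were listed in none of the sets. S100a8 was at 12.7, 12.4 and 5.59 and S100a9 at 21.4, 31.6 and 3.90 in whole tumor with Control SMO, with LFPRLR SMO and in the tumor Treg set, and Lcn2 (47.7 and 33.1) and Csf3r (1.09 and 8.02) were listed in whole tumor alone. The Csf3r values came from a 15-exon transcript of 2168 bases with Control SMO and a 3-exon piece of 511 bases with LFPRLR SMO. Counted for the bases covered (the exon-weighted value described below), Csf3r was at 0.661 and 1.18. The part of either cell type in the values of the 10 genes was not tested, and in bulk RNA fewer cells of a type and less RNA per cell cannot be told apart.

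The chemokine genes Cxcl5, Cxcl3, Cxcl1 and Cxcl2 lie together at chr5:90759360-90905938 (GRCm38). The promoters of Cxcl1, Cxcl2 and Cxcl3 are shown because these neighbouring genes had very unlike values in the 3 sets. Each stretch runs from 120 bases before the RefSeq start to the base before it, on the plus strand of GRCm38.p6, at chr5:90891125-90891244 for Cxcl1, chr5:90903779-90903898 for Cxcl2 and chr5:90785981-90786100 for Cxcl3. Capitals mark GGG and TTTCC with 2 bases between them, a form of the kB letters that NF-kB binds, on either strand, and TATAAA, the letters of a TATA box.
Cxcl1: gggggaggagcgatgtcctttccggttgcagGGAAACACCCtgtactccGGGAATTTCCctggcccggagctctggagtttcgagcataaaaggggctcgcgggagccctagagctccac
Cxcl2: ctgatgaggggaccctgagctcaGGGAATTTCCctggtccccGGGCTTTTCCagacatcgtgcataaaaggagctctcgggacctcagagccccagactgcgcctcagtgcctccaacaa
Cxcl3: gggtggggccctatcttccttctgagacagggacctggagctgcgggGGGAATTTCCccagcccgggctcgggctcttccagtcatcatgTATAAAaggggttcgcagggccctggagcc

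The first pattern lay at -89 on the opposite strand and at -71 in Cxcl1, at -97 and -78 in Cxcl2, and at -73 in Cxcl3, counted from the start site. Il1rn, which has 3 promoter entries, held it at 1 place, which lies at -51 from one start and at 30 from another. So 4 of the 9 members with a promoter held it, beside 1.63% of 32851 RefSeq promoters of 300 bases, and 1.89% of 27025 genes in at least 1 of their promoters. TATAAA lay on the gene's strand between -32 and -24 in 4 of the 9 members, Il1a, Il1b, Cxcl3 and Tnf, and in Il1rn on the opposite strand after the start, at 15. Anywhere in the window and on either strand, 13.6% of all promoters held it. The promoters of Il1a and Il1b, which lie on the minus strand at chr2:129309973-129310092 and chr2:129371140-129371259 over the same stretch, are shown for this pattern, which began at -32 and -31. No entry was matched for Cxcl5.
Il1a: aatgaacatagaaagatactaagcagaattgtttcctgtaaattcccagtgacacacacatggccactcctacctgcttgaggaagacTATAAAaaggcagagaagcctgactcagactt
Il1b: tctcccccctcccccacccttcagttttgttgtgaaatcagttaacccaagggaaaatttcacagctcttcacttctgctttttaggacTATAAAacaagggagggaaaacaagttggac

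In whole tumor the 10 genes were low, and most were listed with both treatments. With Control SMO 7 of the 10 were listed and with LFPRLR SMO 7 of the 10, of which 6 were shared, namely Il1a, Il1b, Il1rn, Il1r2, Cxcl1 and Ptgs2. Cxcl2 was listed with Control SMO only, Cxcl5 with LFPRLR SMO only, and Cxcl3 and Tnf with neither. In the tumor Treg values 9 of the 10 were listed, all but Cxcl5.

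**Figure D1:**
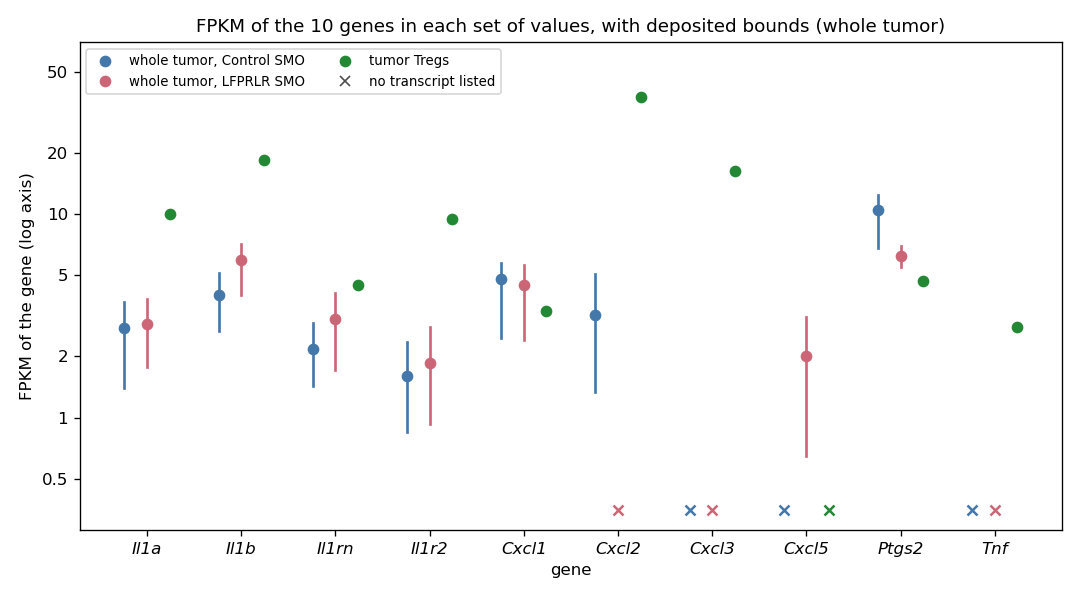
FPKM of each gene on a log axis, with points for whole tumor with Control SMO, whole tumor with LFPRLR SMO and tumor Tregs, vertical lines for the deposited lower and upper bounds (whole tumor) and crosses where no transcript was listed. In the tumor Treg set, Cxcl2 stood at 37.5, Il1b at 18.5 and Cxcl3 at 16.3, while in whole tumor every listed gene was at or below 10.5.

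Among the agonists, Il1b (chr2:129364570-129371139, minus strand) had an FPKM of 4.00 in whole tumor with Control SMO, with deposited 95% bounds of 2.67 to 5.14, and 5.93 with LFPRLR SMO, with bounds of 4.01 to 7.12. The LFPRLR SMO value was higher by 0.57 on the log2 scale and the bounds overlapped. In the tumor Tregs Il1b was at 18.5. Il1a (chr2:129299610-129309972, minus strand) was nearly level between the whole tumor libraries, at 2.76 (bounds 1.40 to 3.71) after Control SMO and 2.88 (bounds 1.78 to 3.81) after LFPRLR SMO, and was at 10.1 in the tumor Tregs. Within each set Il1b was the higher of the agonists, by 1.45-fold and 2.06-fold in whole tumor and 1.84-fold in the tumor Tregs. Counted for the bases each transcript covers (the exon-weighted value described below), the ratios were 2.90, 2.86 and 1.80, so the difference between the whole tumor libraries was not kept. Over exons with coverage above 0, the tumor Treg values were 40.0 for Il1b and 10.4 for Il1a, further apart than on either scale. The bounds describe the assembly of 1 library, not the spread between mice, and the FPKM lay inside its own bounds for 94.0% and 95.3% of transcripts in the whole tumor libraries.

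The inhibitors were at levels near that of Il1a in whole tumor, with overlapping bounds. Il1rn (chr2:24336853-24351494, plus strand) was at 2.19 (bounds 1.44 to 2.91) with Control SMO, 3.05 (bounds 1.72 to 4.08) with LFPRLR SMO and 4.50 in the tumor Tregs, the last as the sum of 2 transcripts. Il1r2 (chr1:40074079-40125231, plus strand) was the lowest listed member of both whole tumor libraries, at 1.61 (bounds 0.845 to 2.37) and 1.86 (bounds 0.926 to 2.78), and stood at 9.48 over 3 transcripts in the tumor Tregs. The summed FPKM of Il1a and Il1b exceeded that of Il1rn and Il1r2 by 1.78-fold with Control SMO, 1.79-fold with LFPRLR SMO and 2.05-fold in the tumor Tregs. When each transcript was counted for the bases it covers in the same way, the ratio was 1.78, 2.90 and 2.63, and with Control SMO Il1rn stood at 1.58, Il1a at 1.33 and Il1r2 at 1.32, so the likeness of the whole tumor libraries depended on how partial transcripts were counted.

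Among the chemokines, only Cxcl1 (chr5:90891241-90893115, plus strand) was listed in all 3 sets, of which whole tumor and tumor Tregs were normalized separately. Its FPKM was 4.83 (bounds 2.47 to 5.73) with Control SMO, 4.47 (bounds 2.42 to 5.61) with LFPRLR SMO and 3.35 in the tumor Tregs. The listed Cxcl1 transcript held the 3 annotated introns in every set. In the tumor Tregs its last exon had a coverage of 0, so the last intron there rests on the listed structure. Cxcl2 (chr5:90903871-90905938, plus strand) was at 3.21 (bounds 1.34 to 5.09) with Control SMO, had no transcript on its interval with LFPRLR SMO, and was at 37.5 in the tumor Tregs, where it was the highest of the members. The ratio of Cxcl2 to Cxcl1 was 0.665 in whole tumor with Control SMO and 11.2 in the tumor Tregs, or 4.55 there over exons with coverage above 0, where Cxcl1 was at 9.33. Cxcl3 (chr5:90786103-90789600, plus strand) had no transcript in either whole tumor library and an FPKM of 16.3 in the tumor Tregs. Cxcl5 (chr5:90759360-90761624, plus strand) was at 2.02 (bounds 0.650 to 3.12) with LFPRLR SMO only. The summed FPKM of these chemokines was 8.04, 6.48 and 57.2 in the 3 sets.

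Whether Cxcl2 and Cxcl3 can be told apart was checked in the annotated transcripts. Their coding parts of 300 bases were identical at 89.7% of positions, and Cxcl1 and Cxcl2 at 78.8%. Of the 50-base stretches of the Cxcl2 transcript 5.75% also occur in Cxcl3, and of those of Cxcl3 6.31% occur in Cxcl2, while 0 of 904 stretches of Cxcl1 occur in another gene. Over those shared stretches the split of reads between Cxcl2 and Cxcl3 is uncertain, and how the authors counted reads that match both is not given in the sources used here.

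Ptgs2 (chr1:150100031-150108227, plus strand), the inducible cyclooxygenase, was the highest member of both whole tumor libraries by summed FPKM. Its summed FPKM was 10.5 (bounds 6.81 to 12.5) with Control SMO, 6.21 (bounds 5.48 to 6.95) with LFPRLR SMO and 4.68 in the tumor Tregs. With Control SMO its bounds lay apart from those of Cxcl1, the next member, and every other pair of neighbours in the order of levels had overlapping bounds in both libraries. That separation rests on a separate piece of the last exon, without which Ptgs2 was at 3.96 with Control SMO, below Cxcl1 and Il1b. Tnf (chr17:35199381-35202007, minus strand) was listed in the tumor Tregs only, at 2.79, the lowest member there.

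The absence of a listed transcript does not show that a gene was silent. For transcripts within 20% of the gene's annotated length, the lowest listed FPKM was 0.450 and 0.639 in the Control SMO and LFPRLR SMO libraries for Cxcl3, 0.380 and 0.372 for Tnf, 0.492 for Cxcl2 with LFPRLR SMO and 0.380 for Cxcl5 with Control SMO. The deposited bounds for Cxcl2 and Cxcl5, where listed, reached down to 1.34 and 0.650. In the tumor Tregs transcripts of the length of Cxcl5 were listed down to 0.0126, and the TPM summed to 852805 in place of 1000000, so the set used here is not complete.

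Each member was also ranked within its own set of values. Among 9621 ranked genes with Control SMO, Ptgs2 was at 2242, Cxcl1 at 5228, Il1b at 6090, Cxcl2 at 6970, Il1a at 7451, Il1rn at 8123 and Il1r2 at 8786. Among 9727 with LFPRLR SMO, Ptgs2 was at 4267, Il1b at 4452, Cxcl1 at 5697, Il1rn at 7128, Il1a at 7316, Cxcl5 at 8276 and Il1r2 at 8506. By summed FPKM, all but Ptgs2 and, with LFPRLR SMO, Il1b thus ranked below the median listed gene. When each gene stood for its most abundant transcript alone, Il1b was at 4109 and 2296 and Cxcl1 at 3296 and 3363 in the Control SMO and LFPRLR SMO libraries, which puts both above the median gene. Exon-weighted, Il1b stayed above it, at 3381 of 10328 and 1854 of 11053. Cxcl1 did not, at 6257 and 5537 of the same totals. Its exon-weighted value is divided by a longest annotated transcript of 1871 bases, while its spliced coding transcript has 953, which lowers it. For Il1b both lengths are 1356. Among 3481 genes above 0 in the tumor Tregs, Cxcl2 was at 109, Il1b at 243, Cxcl3 at 275, Il1a at 497 and Il1r2 at 529, which put them in the top 3.13%, 6.98%, 7.90%, 14.3% and 15.2%. Ptgs2 was at 1236, Il1rn at 1265, Cxcl1 at 1707 and Tnf at 2232. Exon-weighted, Cxcl2 was at 19.7 and rank 235 and Cxcl3 at 4.75 and rank 730, below Il1a at 404 and Il1r2 at 589, and for both genes the longest annotated transcript, by which this value is divided, is an intron-retaining one of 2066 and 3498 bases. The whole tumor lists and the tumor Treg list were made by different programs and hold different numbers of genes, so the ranks describe each list on its own.

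**Figure D2:**
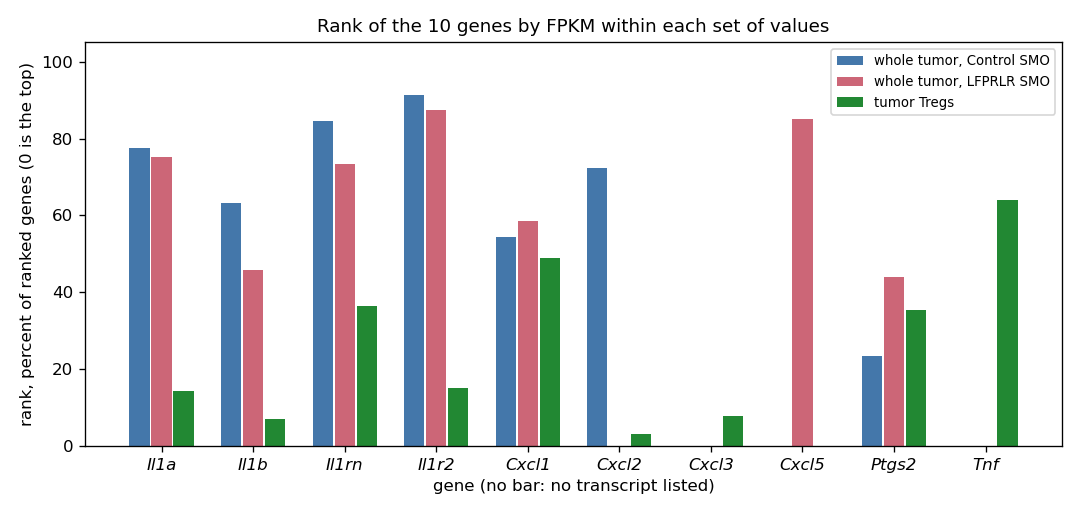
Rank of each gene by FPKM as a percent of the ranked genes of that set, where 0 is the top. Bars are short for Cxcl2 (3.13), Il1b (6.98) and Cxcl3 (7.90) in the tumor Tregs, and for whole tumor the shortest bar is that of Ptgs2 with Control SMO (23.3).

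For the comparison of LFPRLR SMO with Control SMO in whole tumor, 8 members reached an FPKM of 1 in either library. With 0.1 added to each value, 1 member was higher by at least a factor of 2 with LFPRLR SMO (Cxcl5), beside 18.6% of the 10488 genes past the same minimum, and 1 was lower (Cxcl2), beside 17% of those genes. Both were members listed in 1 library alone. Of all genes past the minimum 7.89% were listed with Control SMO only, against 1 of the 8 members, and 9.1% with LFPRLR SMO only, against 1 of the 8. With 1 member in each, these counts are too small to set apart from the shares of all genes.

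The 6 members listed in both libraries differed little between treatments. The log2 ratio of LFPRLR SMO over Control SMO was 0.57 for Il1b, 0.48 for Il1rn, 0.21 for Il1r2, 0.06 for Il1a, -0.11 for Cxcl1 and -0.76 for Ptgs2. Their median was 0.14, and the median over all 8715 genes listed in both libraries was -0.09. The ratios that the deposited bounds allow included 0 for each of the 6, from -0.36 to 1.41 for Il1b and from -1.19 to 0.03 for Ptgs2. Of 8588 genes that reached an FPKM of 1 in both libraries, 33.6% had a ratio at least as far from 0 as that of Ptgs2, 45.8% as that of Il1b and 93.6% as that of Il1a.

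The sign for Ptgs2 turned on how its transcripts had been assembled. With Control SMO the gene was listed as a transcript of 3437 bases and 10 exons at an FPKM of 3.96, and a separate piece of 799 bases within the last exon at 6.57, with 83 bases between them at chr1:150107230-150107312. With LFPRLR SMO it was listed as 1 transcript of 4443 bases at 6.21. A sum over FPKM counts the pieces as if each were a whole transcript, so an exon-weighted value was also formed, in which the FPKM of each transcript on the gene's strand or without strand counts in proportion to the gene's exon bases it covers, relative to the longest annotated transcript. On that scale Ptgs2 was at 4.23 after Control SMO and 6.19 after LFPRLR SMO, a log2 ratio of 0.55 in place of -0.76. With Control SMO it then stood close to Il1b, at 3.84 on the same scale.

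The other members were also affected by partial transcripts. Exon-weighted, the log2 ratio was 0.57 for Il1b, 0.59 for Il1a, 0.15 for Cxcl1, 0.11 for Il1r2 and -0.37 for Il1rn, with a median over the 6 of 0.35 beside -0.16 over all genes listed in both. The direction was kept for Il1b, Il1a and Il1r2 and was turned for Il1rn, Cxcl1 and Ptgs2. For Il1b the 2 scales could not differ, because its transcript covered 96.1% of the annotated bases in both libraries. Of the 6 members whose exon-weighted value was at least 1, 0 lay past a factor of 2 upward and 0 downward, beside 5.74% and 8.53% of 8902 genes.

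**Figure D3:**
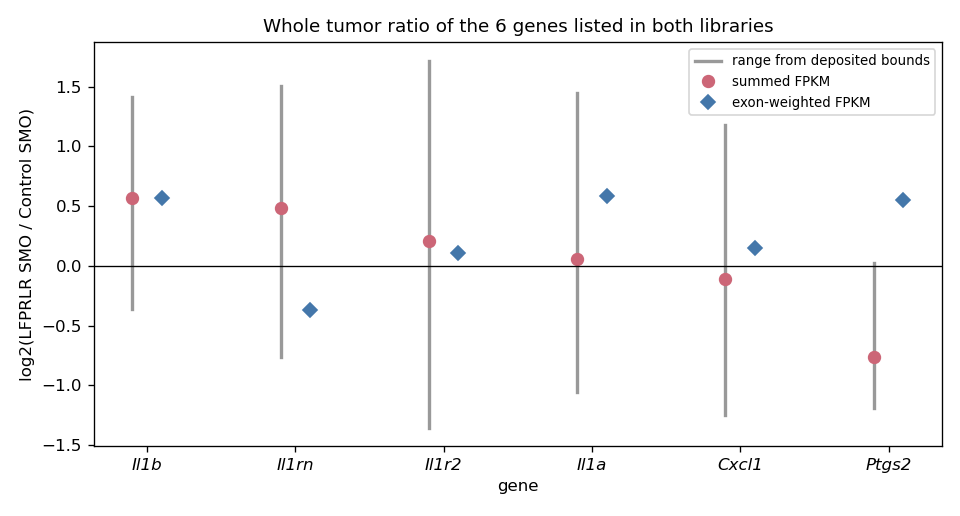
Log2 ratio of LFPRLR SMO over Control SMO in whole tumor for the 6 genes listed in both libraries, from summed FPKM (circles, with the range the deposited bounds allow as gray lines) and from exon-weighted FPKM (diamonds). Ptgs2 moved from -0.76 to 0.55 and Il1rn from 0.48 to -0.37. Il1b was at 0.57 in both measures by construction, as its transcripts covered the same share of annotated bases in both libraries.

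Transcript structure set how far each value can be read. Il1b was assembled nearly in full in whole tumor, with 6 of 6 introns and 96.1% of the bases of its annotated transcript in both libraries, as was Ptgs2 over its listed transcripts, with 9 of 9 introns and 95.1% and 99.6% of bases. The Il1b transcript with Control SMO carried in addition a first exon of 152 bases at chr2:129380851-129381002, 9712 bases before the annotated 5′ end and over no annotated gene. The Il1b transcript with LFPRLR SMO began 16 bases before that end. Il1a with Control SMO held 3 of 6 introns and 60.7% of the coding bases, and with LFPRLR SMO all 6 introns and 100% of them. The near-level FPKM of Il1a thus stood for transcripts of 947 and 1365 bases.

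The inhibitors were less complete. Il1rn with Control SMO held 3 of the 4 introns over 1848 bases, and with LFPRLR SMO it was a single-exon piece of 1027 bases that shared no intron and held 44.7% of the coding bases. The 2 transcripts of Il1rn in the tumor Tregs, at 3.88 and 0.622, began at different first exons. Il1r2 held 7 of 8 introns with Control SMO and 6 of 8 with LFPRLR SMO, the missing ones at the 3′ end in the former and at the 5′ end in the latter.

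Of the chemokines, Cxcl2 with Control SMO held all 3 introns and 100% of the coding bases in 532 bases, ending 565 bases short of the annotated 3′ end. Cxcl5 with LFPRLR SMO was a single-exon piece of 645 bases at the 3′ end with 0% of the coding bases, reaching 46 bases past the annotated gene. It shared none of the 3 annotated introns, so no splicing of Cxcl5 was seen in it. Tnf in the tumor Tregs was a partial transcript of 492 bases with 2 of 3 introns and 41.0% of the coding bases.

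**Figure D4:**
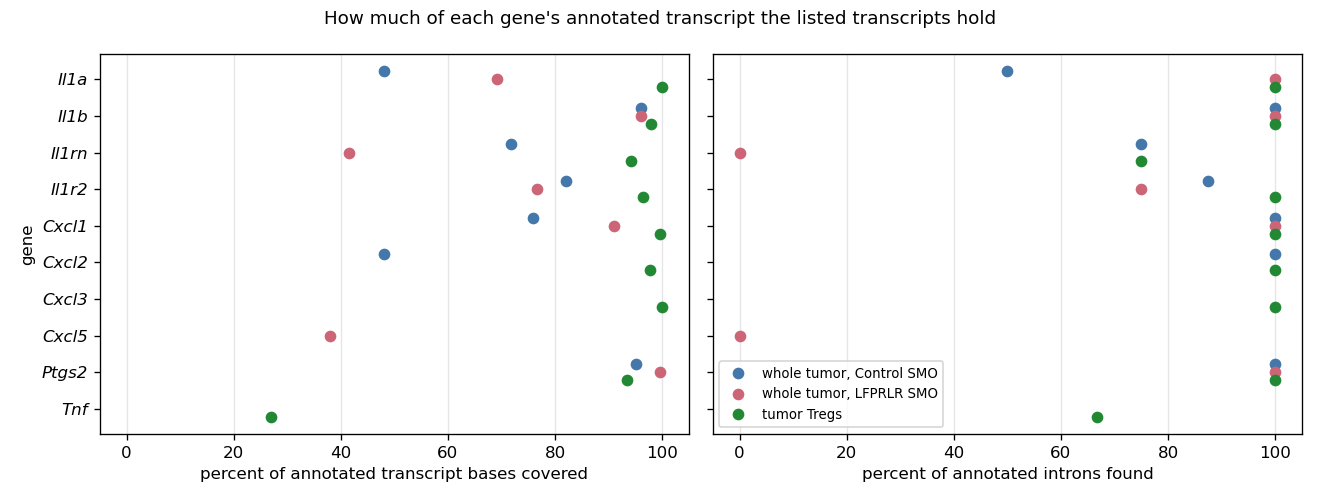
Percent of the annotated coding transcript's bases (left) and of its introns (right) held by the listed transcripts of each gene, by set, with no point where none was listed. The listed transcripts of Il1b, Cxcl1 and Ptgs2 held every intron in all 3 sets, whereas the single-exon pieces of Il1rn (41.5% of bases) and Cxcl5 (38.0%) with LFPRLR SMO held none. In the tumor Tregs the last exon of Il1b, Cxcl1 and Ptgs2 had a coverage of 0, so the last intron there rests on the listed structure.

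In the tumor Tregs, coverage was deposited for each exon of each transcript, and transcripts of several members had none at their ends. For Il1b, exons 2 to 6 had a coverage of 48.2, 39.2, 33.7, 39.9 and 36.5, while the first exon of 53 bases and the last exon of 659 bases, which holds 207 coding bases, were both at 0. For Cxcl1 the first 3 exons were at 9.37, 9.05 and 7.61 and the last exon of 608 bases was at 0. Cxcl2 had 0 over its first exon of 125 bases, which holds 79 coding bases, and 74.0, 66.1 and 31.7 over the others. In whole tumor, the Il1b transcripts reached to within 53 bases of the annotated 3′ end.

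The same was seen in the 9-exon Il1r2 transcript and the longer Ptgs2 transcript, whose first and last exons were at 0, and in Il1a, whose first exon was at 0. Other listed transcripts of Il1r2 covered its first exon at 3.22 and its last at 4.24. The shorter Ptgs2 transcript covered the first exon at 4.72. For these exons a 0 describes 1 transcript, not the gene. Cxcl3 was covered in all 4 exons, at 20.3, 27.0, 20.1 and 11.6. Of the 8 members' transcripts with a deposited symbol, at least 3 exons and an FPKM of 1 or more, 5 had the first exon at 0 and 4 the last, and 6 had either (75%), beside 31.6% of 1251 such transcripts of all genes. Without the FPKM minimum, which left out the second Il1rn transcript, 6 of 9 had either, beside 32.2% of 1576. Of 33 internal exons of the 8 transcripts 0 were at 0, beside 1.30% of internal exons of all genes. Of 1313 transcripts without a deposited symbol, all of them past the minimum, 0.152% had an end exon at 0.

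**Figure D5:**
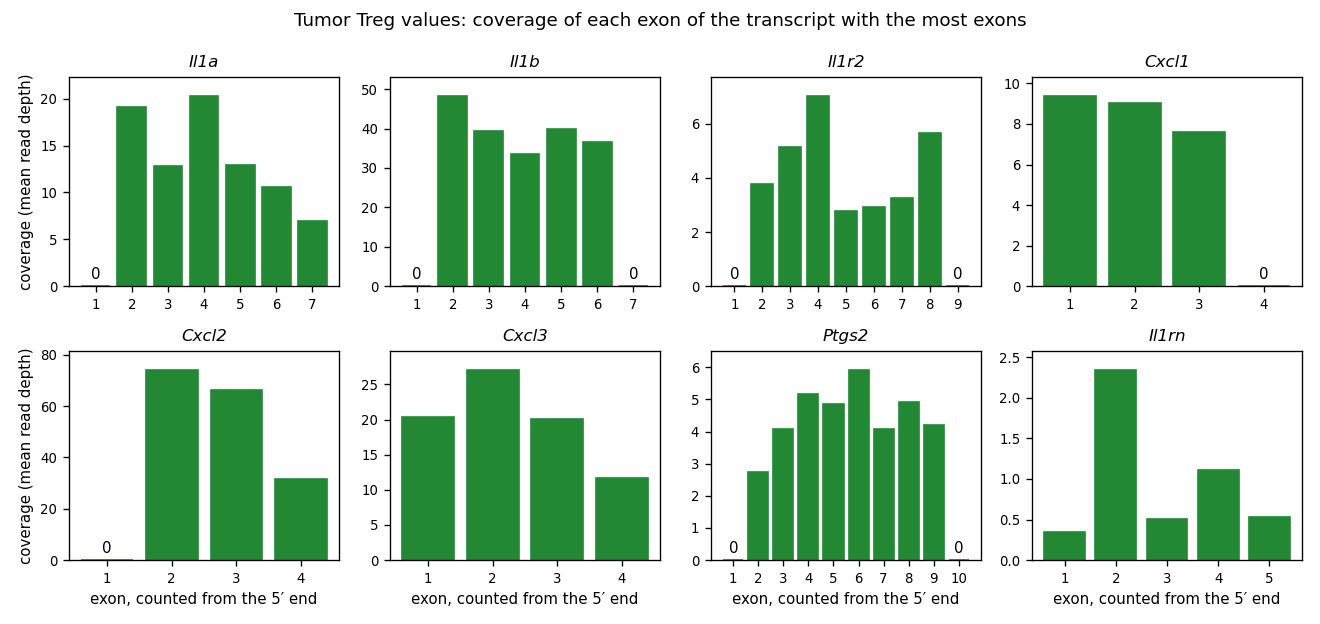
Coverage (mean read depth per exon) along the transcript with the most exons of 8 genes in the tumor Treg values, exons counted from the 5′ end, with 0 written where an exon had none. In Il1b both ends were at 0 beside 33.7 to 48.2 within, and Cxcl3 was covered throughout.

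An FPKM averaged over exons without reads is lower than one over the exons that had them. Over covered exons the tumor Treg FPKM was 40.0 for Il1b in place of 18.5, 42.4 for Cxcl2 in place of 37.5, 9.33 for Cxcl1 in place of 3.35, 10.4 for Il1a in place of 10.1 and 10.3 for Il1r2 in place of 9.48. For Ptgs2 it was 7.88 in place of 4.68. On this scale Il1b and Cxcl2 were close to each other, and Cxcl1 remained the lower chemokine of the 3 listed. The tumor Treg ratios of Il1b to Il1a and of agonists to inhibitors were larger on it than those given above.

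AU-rich 3′ ends mark short-lived messages, and the letters ATTTA were counted after the stop codon of each annotated coding transcript. Ptgs2 held 14, Cxcl2 11, Tnf 8, Cxcl1 7, Cxcl3 and Cxcl5 5 each, Il1b 4, Il1a 3 and Il1rn 0, over 3′ ends of 459 to 2445 bases. Per kilobase the order was another, with Cxcl2 at 15.0, Cxcl1 at 11.8, Tnf at 10.5, Il1b at 8.71, Cxcl3 at 7.75, Ptgs2 at 5.73, Cxcl5 at 4.50 and Il1a at 2.72. Il1r2 held 0, in a 3′ end of only 24 bases. The median of the members was 5 and that of 21186 genes was 1. At least as many as in Ptgs2 were found in 2.56% of genes, and as many as in Cxcl2 in 4.70%.

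The wider pathway was described by 8 lists with 97 genes, chosen by role. Of these, 69 were listed with Control SMO, 65 with LFPRLR SMO and 33 in the tumor Tregs. Of 71 past the minimum, 10 (14.1%) were higher and 11 (15.5%) lower by a factor of 2 with LFPRLR SMO, near the shares of all genes above. Exon-weighted, 1 was higher and 6 lower of 57, beside 5.74% and 8.53% of all genes past the minimum on that scale. The median log2 ratio was 0.14 over the 61 listed in both, beside -0.09 over all genes listed in both.

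Among receptors of the family, Il1r1, the signalling receptor, was at 4.08 and 3.91 in whole tumor and unlisted in the tumor Tregs. Its partner Il1rap was at 4.49 after Control SMO and 12.9 after LFPRLR SMO in summed FPKM, and exon-weighted at 1.79 and 2.09. Il1f9, an interleukin-36 ligand, was listed with LFPRLR SMO only at an FPKM of 161, from 1 exon of 201 bases whose deposited bounds of 10.4 to 23.8 did not hold that value. None of the 13 further genes of the family was listed in the tumor Tregs.

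Of the genes that process interleukin-1, Casp1, the protease that cleaves the Il1b precursor, was at 4.52 and 4.98 in whole tumor and unlisted in the tumor Tregs. Nlrp3, the sensor that activates it, was listed in the tumor Tregs only, at 2.99, and Pycard, the adaptor between them, was at 1.57 with LFPRLR SMO and 1.35 in the tumor Tregs. Gsdmd, which forms the pores through which Il1b leaves the cell, was listed with Control SMO only at 5.24, as was the DNA sensor Aim2 at 4.01. Nek7, which binds Nlrp3, was at 16.9 and 14.7.

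Cxcr2, the receptor for these chemokines, was at 28.8 with Control SMO from 1 exon of 256 bases with deposited bounds of 2.44 to 9.15, was unlisted with LFPRLR SMO, and was at 0.421 in the tumor Tregs. Of the other CXC ligands, Cxcl14 was at 10.3, 12.0 and 6.12 in the 3 sets, Cxcl16 at 7.73, 6.24 and 9.22, and Pf4, the platelet factor, at 6.19, 3.19 and 25.8. Cxcl10, an interferon-induced ligand for T cells, was listed with Control SMO only at 5.26.

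The TNF receptor Tnfrsf1a was at 41.2 after Control SMO and 4.52 after LFPRLR SMO, the former holding a 252-base piece at 36.0 beside the 10-exon transcript at 5.23. Exon-weighted, Tnfrsf1a was lower by 1.08 on the log2 scale with LFPRLR SMO, a value in which the 252-base piece still counts. The 10-exon transcripts alone were at 5.23 (bounds 4.31 to 6.16) with Control SMO and 4.52 (bounds 3.60 to 5.44) with LFPRLR SMO, with overlapping bounds. Adam17, the protease that releases Tnf from the cell surface, was at 12.8 and 4.80 in summed FPKM and at 5.41 and 4.34 exon-weighted.

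Among NF-kB genes, Nfkbia, the inhibitor induced by the pathway itself, was at 8.51, 13.9 and 11.8 in the 3 sets. Of the 12 listed in both whole tumor libraries the median log2 ratio was 0.66 in summed FPKM and -0.03 exon-weighted, so the shift did not hold on the second scale. Zfp36, which binds AU-rich 3′ ends and speeds their decay, was at 2.46, 4.96 and 27.3, ranking 157 in the tumor Tregs. Its exon-weighted whole tumor values were 1.59 and 1.67.

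In prostaglandin E2 synthesis, Pla2g4a, which frees the arachidonic acid that Ptgs2 uses, was at 4.97, 5.47 and 7.06. Ptges, the inducible prostaglandin E synthase, was listed with Control SMO only at 3.95, and Ptges3 at 40.1, 27.7 and 17.2.

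Between the whole tumor libraries, the marker lists moved by these amounts. For monocytes and macrophages the summed FPKM was 788 after Control SMO and 528 after LFPRLR SMO, the median log2 ratio of the 22 genes listed in both was -0.52 (exon-weighted -0.59), and 5 of 23 were lower by a factor of 2, beside 17% of all genes. Exon-weighted, 2 were lower, beside 8.53% of all genes. Genes used by every cell had a median of -0.44 on both scales, with 3 of 9 lower, or 2 exon-weighted. Over all genes listed in both libraries the median was -0.09 (exon-weighted -0.16). Of 10 endothelial genes 4 were lower, or 0 exon-weighted, but their median was 0.33 (exon-weighted -0.18). The median was 0.07 (exon-weighted -0.13) for 4T1 epithelial genes and -0.004 (exon-weighted 0.17) for fibroblast genes. For neutrophils the sum was 145 and 141, with 28.8 of the former from the short Cxcr2 piece, and the median of the 5 genes listed in both was 0.56 (exon-weighted 0.16). The part of these cell types in the ratios of the 10 genes was not tested.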

How the data were processed

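For whole tumor the authors deposited transcripts assembled by Cufflinks (version not given in the sources used here) on mm10, each with FPKM, lower and upper bounds, coverage and a score. For tumor Tregs they deposited transcripts from StringTie 1.2.3 with coverage, FPKM and TPM. The deposited score was not used. The submitters' processing notes also name HISAT2 2.0.4 and Cuffdiff 2.0.2. Whole tumor and tumor Treg values were normalized separately. RNA of 6 mice was pooled per library.

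Transcripts were placed in genes of GENCODE M21 (GRCm38, the assembly of mm10), in Tregs by the deposited symbol first. FPKM was summed over a gene's transcripts. Ratios were taken without a pseudocount for genes listed in both libraries, and with 0.1 for counts past a factor of 2 over genes that reached an FPKM of 1 in either library. Promoters came from RefSeq (GRCm38.p6), and 9 of the 10 genes matched. The placement and counting were tested on simulated data. The work ran in Python 3.11.15 with numpy 2.4.6, and figures were drawn in matplotlib 3.10.9.

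The 10 genes and the 15 lists (8 for pathways, the rest for cell types and genes used by every cell) were chosen with earlier results of these data known. From each list the genes named were the 2 highest in each set and the 2 with the largest ratios. The genes named in the text are a part of these, and the unlisted T cell and neutrophil markers and S100a9 were named after their values were seen. Epithelial, fibroblast and endothelial markers were listed for 16 of 17, 12 of 14 and 10 of 12 genes in whole tumor with Control SMO, and for 7, 4 and 0 in tumor Tregs. Of 10 genes used by every cell 9 were listed in each set, with a median log2 ratio of -0.44 in whole tumor. The likeness of the chemokine proteins was not analysed here, and coding bases were compared instead.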

Additional observations from a re-analysis of the deposited data

How the results depend on the processing

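Each group was 1 library, so no replicate could be left out and no error between mice was measured. No paired analysis was possible because each group holds a single library. Read totals were not used here, and a low gene in whole tumor rests on few aligned bases. The median log2 ratio of the 6 members (0.14) became 4.69 when FPKM was scaled to TPM, and the count higher became 7 and the count lower 0, because the sums of FPKM differ between the whole tumor libraries and that scaling adds 4.55 to every log2 ratio. The count of members higher by a factor of 2 (1) became 0 with an FPKM of at least 5, 0 with exon-weighted values and 0 with shared introns only. The count lower (1) became 0 with an FPKM of at least 5, 0 with exon-weighted values, 2 with a factor of 1.5 and 2 with shared introns only. Of these, the higher minimum removes the low genes Cxcl2 and Cxcl5 by its construction, and shared introns drop the single-exon pieces of Cxcl5 and Il1rn. Exon-weighted, Cxcl2 (0.827 with Control SMO) and Cxcl5 (0.649 with LFPRLR SMO) fell below the FPKM minimum of 1. With a factor of 1.5 the added lower member was Ptgs2, at a fold of 0.59. Of the values for single genes, 81 of 99 FPKM, 44 of 53 log2 ratios and 78 of 90 ranks moved by less than their deposited interval or 1.5 times, and 18, 9 and 12 moved further. The value over covered exons, the exon-weighted value over placed transcripts only and the median over 8 members were chosen after seeing the data.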
